A study of Homo sapiens with 26 samples.

Results

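The genes described here encode the cytosolic and mitochondrial chaperones, the proteins that fold new or damaged proteins, together with the heat shock factors that switch many of them on. They were chosen by name, as 39 gene symbols, and matched 40 genes of 58735 in the table, because HSPA14 is listed under 2 gene IDs that overlap on chromosome 10. All 40 passed the filter on low values that left 14835 genes for testing. The 26 RNA libraries came from 3 human cancer lines in long use, HCT116 and DLD1 from colorectal tumours and CAL51 from a triple negative breast cancer. Tetraploid (4N) cells had been made by blocking cytokinesis for 20 hr, with 75 µM blebbistatin in HCT116 and CAL51 and with 1.5 µg/mL dihydrocytochalasin in DLD1, and then cloned from single cells after 48 hr of recovery. The 4N clones were small or large in cell and nuclear size. Every line had 1 parental library and 2 diploid clones (2N). Beside these there were 3 small and 3 large tetraploid clones of HCT116, 3 small and 4 large of DLD1, and 1 small and 3 large of CAL51. Each library is 1 clone or the uncloned parental line, so the spread within a class is the spread between clones, and all 4N clones of a line had been exposed to the same drug.

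HSP70 proteins bind short greasy stretches of unfolded proteins in a cycle driven by ATP. HSP40 proteins (the DNAJ family) deliver the substrate and start ATP hydrolysis, and HSP110 proteins exchange the nucleotide. HSP90 takes over late-folding clients such as kinases and steroid receptors, with co-chaperones that load, time or release them. TRiC, also called CCT, is a closed double ring of 8 related subunits that folds actin and tubulin, and prefoldin hands it those clients. In mitochondria the HSP60 and HSP10 chamber (HSPD1 and HSPE1) and mortalin (HSPA9) do the corresponding work. Heat shock factor 1 (HSF1) is held in check while chaperones are free, and under stress it forms a trimer that binds heat shock elements, inverted repeats of the letters GAA and TTC, in the promoters of its targets.

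Promoters of stress-inducible HSP70 genes, which varied most, and of DNAJB1, the member that passed the test between clone sizes, are shown first, because they hold GAA and TTC in such inverted pairs. Of the 39 symbols, 35 had a promoter in the RefSeq table (GRCh38.p14), which gives 250 bases before and 50 after each start. A pair of inverted units was searched as GAANNTTC or TTCNNGAA, each of which reads the same on both strands. Either pair stood in 13.5% of all 35116 promoters, in at least 1 promoter of 16.2% of 27305 genes, and in at least 1 promoter of 17 of the 35 members (48.6%). Runs of 3 units were searched as GAANNTTCNNGAA or TTCNNGAANNTTC, which are each other's reverse complement and contain the pairs. They stood in a promoter of 0.608% of all genes and of 6 members, DNAJA1, DNAJB6, HSP90AA1, HSP90AB1, HSPA8 and HSPD1. HSPA1A, HSPA1B and DNAJB1 were not among these members. A match describes letters in this window and is not evidence of binding. The stretches upstream of the stress-inducible HSP70 genes HSPA1A (chr6:31815293-31815463, plus strand) and HSPA1B (chr6:31827488-31827734, plus strand) and of the HSP40 gene DNAJB1 (chr19:14518421-14518647, minus strand) are printed 5′ to 3′ with the paired units in capitals.
HSPA1A: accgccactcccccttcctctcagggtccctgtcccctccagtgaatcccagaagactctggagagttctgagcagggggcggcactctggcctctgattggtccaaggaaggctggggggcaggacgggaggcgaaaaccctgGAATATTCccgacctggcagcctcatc
HSPA1B: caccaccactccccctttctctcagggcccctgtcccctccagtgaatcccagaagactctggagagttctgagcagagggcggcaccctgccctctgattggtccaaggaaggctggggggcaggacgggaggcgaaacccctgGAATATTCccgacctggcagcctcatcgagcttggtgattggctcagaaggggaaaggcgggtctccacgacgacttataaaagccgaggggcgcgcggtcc
DNAJB1: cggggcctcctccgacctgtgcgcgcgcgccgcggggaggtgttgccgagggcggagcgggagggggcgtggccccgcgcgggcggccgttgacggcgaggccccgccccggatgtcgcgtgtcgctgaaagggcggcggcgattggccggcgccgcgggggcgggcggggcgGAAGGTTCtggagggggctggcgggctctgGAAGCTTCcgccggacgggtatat

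The 3-unit sites of other members that the results turn on are given as 29 bases each, with the units and the letters between them in capitals. HSPA8, the constitutive HSP70, has 2 of them on the minus strand (chr11:123062346-123062374 and chr11:123062171-123062199). The site of DNAJA1 lies at chr9:33025268-33025296 on the plus strand, and that of HSP90AA1 at chr14:102087112-102087140 on the minus strand. The 2 sites of HSP90AB1 lie at chr6:44247770-44247798 and chr6:44247823-44247851 on the plus strand. The site of HSPD1 (chr2:197500062-197500090, minus strand) has a 4-unit run. The promoter listed for HSPH1 held neither pair of units.
HSPA8, upstream site: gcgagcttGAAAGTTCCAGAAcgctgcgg
HSPA8, downstream site: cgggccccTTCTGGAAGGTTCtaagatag
DNAJA1: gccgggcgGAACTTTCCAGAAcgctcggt
HSP90AA1: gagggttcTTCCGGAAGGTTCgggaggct
HSP90AB1, upstream site: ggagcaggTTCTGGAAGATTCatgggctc
HSP90AB1, downstream site: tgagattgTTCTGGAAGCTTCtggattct
HSPD1: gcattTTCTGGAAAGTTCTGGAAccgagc

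Levels are in FPKM, reads per kilobase of gene length after scaling for library size. The length is the one listed for each gene, from 677 bases for PFDN2 to 14981 for DNAJB6 among members. It need not be that of the mRNA expressed, so ranks between genes depend on it. Libraries held 23.5 to 44.5 M reads in genes (median 32.5 M), and 1 read in a gene of 1 kb was worth 0.0246 to 0.0400 FPKM. Among epithelial markers, EPCAM was at 53.4 FPKM or more in every library, while CDH1 was at 70.0 to 126 in DLD1, 1.92 to 26.2 in HCT116 and 0.193 to 11.1 in CAL51. The mesenchymal marker VIM was at 6.53 to 36.9 in CAL51 and at 1.03 or less in the other lines. CDX2, a defining intestinal factor, was at 4.28 to 8.02 in HCT116 and 38.5 to 81.8 in DLD1, while VIL1, another intestinal marker, was at 0.0213 or less and CDX1 at 0 in HCT116. In DLD1 VIL1 was at 0.202 to 8.99 and CDX1 at 0.0610 or less. In CAL51 the receptor genes ESR1 and PGR were at 0.0217 or less, and the basal keratin genes KRT5 and KRT14 were at 0. Among leukocyte markers, CD3E and LYZ were at 0.25 or less in every library, PTPRC at 0.48 or less and CD14 at 1.53 or less. Some stromal markers were raised in some CAL51 libraries, with COL3A1 up to 29.9 and PDGFRB at 0.573 to 23.7 FPKM. COL1A1 had the higher median in HCT116, at 4.199 against 0.913 in CAL51, where it reached 8.35. The endothelial marker PECAM1 was at 0.096 or less in every library. The part of these markers in the results was not tested. The RNA comes from bulk cultures, so a change in RNA per cell cannot be told apart from a change in the share of cells that express a gene. Several members have near-copies whose reads the deposited values may split. Of all 100-base windows in the HSPA1A transcript 69.9% also occur in HSPA1B, and 68.8% the other way, so only their common behaviour is firm. HSPD1 and HSPE1 lie on opposite strands over the same stretch of chromosome 2, and whether the counting used strand is not given in the sources used here.

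HSP90AB1, the constitutive HSP90, was the highest member in FPKM, with a median of 1308 over 26 libraries. It was followed by the stress-responsive HSP90AA1 (556), HSPA8 (415), the mitochondrial HSP60 gene HSPD1 (321) and the small heat shock protein gene HSPB1 (279.6). The lowest were the HSP110 gene HSPA4L (2.96), the HSP40 gene DNAJB4 (4.04) and HSPA1A (4.74). The 40 genes together took 1.44% to 2.56% of the summed FPKM of nuclear genes in HCT116, 2.39% to 2.86% in DLD1 and 1.36% to 1.77% in CAL51. The DLD1 range lies wholly above the CAL51 range. Single libraries stood out within lines. DLD1 2N clone 1 was the highest of its line for 23 of the 40 members, against 12.9% of all tested genes. DLD1 2N clone 2 was the lowest for 15, against 14.0%. HCT116 large clone 3 was the highest of its line for 21 members, against 23.7% of all genes, and HCT116 small clone 2 was the lowest for 13, against 12.3%. In CAL51 large clone 3 was the lowest for 14, against 11.8%, and the small clone and large clone 1 were each the highest for 12, against 14.7% and 27.9%. Where a result below changes without 1 of these clones, the value without it is given.

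**Figure D1:**
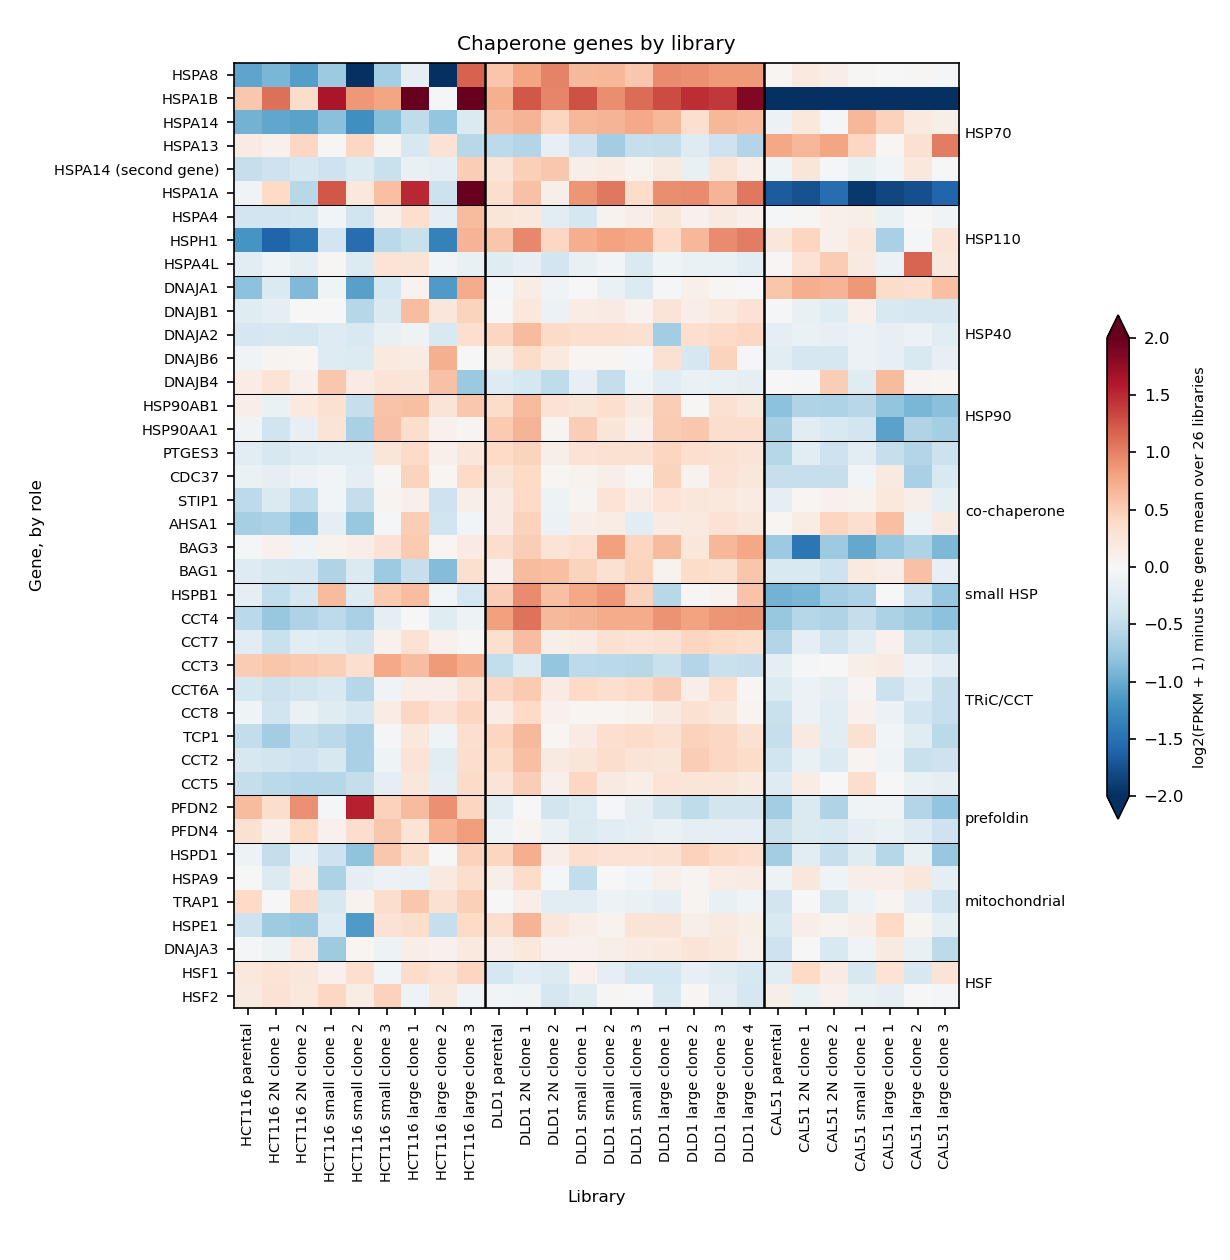
Level of each of the 40 chaperone genes (rows, by role) in each of 26 libraries (columns, by line and class) as log2(FPKM + 1) minus the gene's mean over all libraries, with colours ending at -2 and 2. HSPA1A and HSPA1B are low in all 7 CAL51 libraries, CCT4 is high and CCT3 low in all 10 DLD1 libraries, and HSPA8 and HSPH1 differ widely among the 9 HCT116 libraries.

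The lines were compared as the mean of their 2N, small and large class means, to ask how far the chaperone set depends on the cell line. The 2 stress-inducible HSP70 genes were almost silent in CAL51, the HSP70 and HSP110 genes HSPA8 and HSPH1 were lowest in HCT116, and 2 subunits of TRiC were set in opposite directions in HCT116 and DLD1. Between HCT116 and DLD1, 28 of 40 members passed an adjusted p of 0.05, 8 higher and 20 lower in HCT116, beside 63.7% of all tested genes. Between HCT116 and CAL51, 20 members passed, 12 higher and 8 lower in HCT116, beside 64% of all genes. Between DLD1 and CAL51, 24 members passed, 20 higher and 4 lower in DLD1, beside 61% of all genes. As shares of the members these counts are 70%, 50% and 60%, near those of all genes. The median log2 difference of the members was -0.35, 0.11 and 0.28 in that order, beside 0.002, -0.017 and -0.013 for all genes.

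HSPA1A and HSPA1B encode the same HSP70 protein but for a few residues and are the classic heat shock genes (chromosome 6, 31815464 to 31817946 and 31827735 to 31830255). HSPA1B was at 0.649 FPKM in the CAL51 parental library, 0.403 and 0.695 in the 2N clones, 0.619 in the small clone and 0.381, 0.566 and 1.26 in the large clones. In HCT116 it was at 19.9 in the parental library, 30.1 and 17.6 in the 2N clones, 43.9, 25.4 and 24.0 in the small clones and 57.4, 13.1 and 74.8 in the large clones. In DLD1 it was at 22.5 in the parental library, 33.3 and 27.3 in the 2N clones, 34.0, 26.4 and 30.3 in the small clones and 34.8, 39.2, 37.2 and 51.3 in the large clones. The lowest library of the colorectal lines thus lay above the highest of CAL51. HSPA1A was at 0.420 in the CAL51 parental library, 0.348 and 0.562 in the 2N clones, 0.182 in the small clone and 0.268, 0.324 and 0.504 in the large clones. It was at 3.30 in the HCT116 parental library, 4.91 and 2.05 in the 2N clones, 9.68, 4.22 and 5.82 in the small clones and 11.8, 2.32 and 18.6 in the large clones. In DLD1 it was at 4.72 in the parental library, 5.78 and 3.86 in the 2N clones, 7.29, 8.32 and 4.77 in the small clones and 7.56, 7.69, 6.22 and 8.37 in the large clones. HSPA1A had the same gap between CAL51 and the other lines, and the gap does not depend on how reads were split between the genes. Summed over both, CAL51 libraries held 50 to 149 reads, HCT116 libraries 1318 to 7801 and DLD1 libraries 2473 to 3955.

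On the log2(FPKM + 1) scale, which understates differences of low genes, HSPA1B was higher than in CAL51 by 4.25 ± 0.30 (SE) in HCT116 (adjusted p = 7.39e-10) and by 4.40 ± 0.30 in DLD1 (adjusted p = 3.69e-10). HSPA1A was higher by 2.32 ± 0.31 in HCT116 (adjusted p = 3.57e-06) and by 2.44 ± 0.31 in DLD1 (adjusted p = 1.9e-06). BAG3, a nucleotide exchange factor that links HSP70 to autophagy, followed the same order. It was at 14.6 to 26.9 FPKM in CAL51 (parental 24.9, 2N 14.6 and 24.7, small 20.0, large 24.2, 26.9 and 22.0). In HCT116 its values were 40.3 in the parental library, 44.2 and 39.5 in the 2N clones, 43.8, 45.9 and 50.8 in the small clones and 59.9, 42.8 and 46.7 in the large clones. In DLD1 they were 53.2 in the parental library, 58.7 and 50.6 in the 2N clones, 52.8, 74.3 and 56.6 in the small clones and 65.1, 49.0, 66.3 and 71.6 in the large clones. No CAL51 library reached the lowest of the other lines, and BAG3 was higher by 1.09 ± 0.13 in HCT116 (adjusted p = 9.59e-07) and by 1.45 ± 0.13 in DLD1 (adjusted p = 2.2e-08). Other HSP70 genes that are not members did not share this gap. HSPA1L, the testis-type neighbour of HSPA1A, was at 0.107 to 0.492 in CAL51, 0.127 to 0.382 in HCT116 and 0.121 to 0.487 in DLD1. HSPA6, which is induced only by strong stress, was at 0.420 to 1.36 in DLD1 and at 0.113 or less in the other lines. HSPA2 was at 2.02 to 4.71 in CAL51, above HCT116 (0.433 to 0.851) and DLD1 (0.182 to 0.560).

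HSPA8 (chromosome 11, 123057489 to 123063230) supplies most of the HSP70 of unstressed cells. In HCT116 it was at 187 FPKM in the parental library, 207 and 182 in the 2N clones, 235, 68.3 and 243 in the small clones and 347, 88.005 and 890.3 in the large clones. In DLD1 it was at 572 in the parental library, 677 and 777 in the 2N clones, 612, 622 and 569 in the small clones and 758, 742, 708 and 709 in the large clones. In CAL51 it was at 400.4 in the parental library, 448 and 429 in the 2N clones, 398 in the small clone and 387, 399 and 386 in the large clones. DLD1 and CAL51 kept narrow ranges that did not overlap, while HCT116 large clone 3 exceeded every DLD1 library and the other 8 HCT116 libraries lay below every CAL51 library. HSPA8 was lower in HCT116 than in DLD1 by a log2 of -1.697 ± 0.33 (adjusted p = 0.000236), and lower than in CAL51 by a log2 of -0.96 ± 0.39 (adjusted p = 0.0379). The second call was lost when any of 6 libraries was left out, HCT116 2N clone 1, 2N clone 2 or small clone 2 and CAL51 2N clone 1, 2N clone 2 or large clone 2 (adjusted p = 0.0505 to 0.0723), and with no filter on low values (0.0856).

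HSPH1, the inducible HSP110 nucleotide exchange factor (chromosome 13, 31134974 to 31162388), had a like order. In HCT116 it was at 12.47 FPKM in the parental library, 9.10 and 10.1 in the 2N clones, 22.4, 9.65 and 20.0 in the small clones and 21.3, 11.0 and 47.7 in the large clones. In DLD1 it was at 43.9 in the parental library, 58.3 and 39.6 in the 2N clones, 49.7, 52.3 and 50.9 in the small clones and 38.95, 47.5, 57.5 and 60.7 in the large clones. In CAL51 it was at 34.6 in the parental library, 40.1 and 31.8 in the 2N clones, 34.5 in the small clone and 18.6, 28.97 and 35.3 in the large clones. Large clone 3 was the 1 HCT116 library within the DLD1 range. The log2 difference was -1.64 ± 0.23 between HCT116 and DLD1 (adjusted p = 6.6e-06) and -1.02 ± 0.27 between HCT116 and CAL51 (adjusted p = 0.00272). HSPA14, an HSP70-like protein of the ribosome-associated chaperone complex (ENSG00000187522, chromosome 10, 14838164 to 14871741), set HCT116 apart from both other lines. Its HCT116 values were 5.86 in the parental library, 5.42 and 5.28 in the 2N clones, 6.42, 4.67 and 6.37 in the small clones and 8.37, 6.73 and 9.84 in the large clones. Its DLD1 values were 19.3 in the parental library, 20.2 and 16.8 in the 2N clones, 19.9, 20.2 and 21.4 in the small clones and 19.9, 15.7, 20.0 and 19.4 in the large clones. Its CAL51 values were 11.2 in the parental library, 14.4 and 11.9 in the 2N clones, 19.9 in the small clone and 17.2, 14.2 and 13.4 in the large clones. HCT116 overlapped neither of the other lines, whereas CAL51 reached into the DLD1 range. HSPA14 was lower in HCT116 by a log2 of -1.46 ± 0.09 against DLD1 (adjusted p = 1.29e-10) and -1.19 ± 0.10 against CAL51 (adjusted p = 1.5e-08). The second gene ID, which overlaps it on the same strand, had 4.47 to 9.62 in HCT116, 5.80 to 9.99 in DLD1 and 5.78 to 7.93 in CAL51, and the reads of the pair cannot be cleanly divided.

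**Figure D2:**
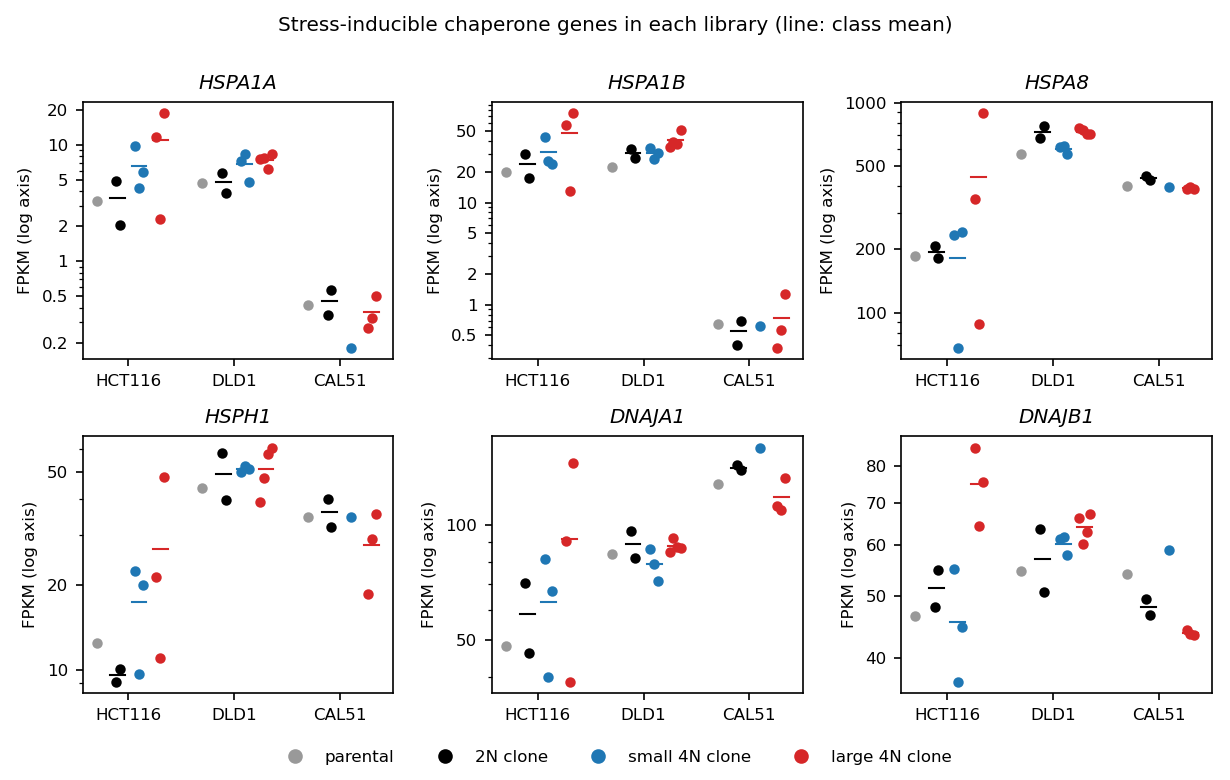
FPKM of 6 stress-responsive members in each library on log axes, by line (x axis) and class (colour), with a short line at the mean of each class of 2 or more clones. HSPA1A and HSPA1B lie far lower in CAL51 than in the other lines, and in HCT116 large clone 3 is the highest point for HSPA1A, HSPA1B, HSPA8, HSPH1 and DNAJA1 while all 3 large clones exceed the small clones for DNAJB1.

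The 8 TRiC subunits are needed in equal numbers in each ring, yet their FPKM were not equal and their balance differed by line. Differences between subunits depend on the gene length used, from 2830 bases for CCT4 to 5839 for CCT5. As a share of the summed FPKM of the 8 genes, CCT3 took a median of 21.1% in HCT116 (16.3% to 23.7%), 15.4% in CAL51 (13.7% to 15.8%) and 7.21% in DLD1 (6.66% to 7.57%). CCT4 showed the reverse, with a median of 23.8% in DLD1 (22.9% to 25.7%), 13.4% in HCT116 (12.6% to 14.1%) and 13.2% in CAL51 (11.9% to 13.6%). DLD1 overlapped neither of the other lines for either subunit. In FPKM, CCT3 was at 151 to 216 in HCT116, 69.4 to 99.2 in DLD1 and 103 to 134 in CAL51, and CCT4 at 93.0 to 158, 248 to 337 and 88.6 to 113 in that order. CCT4 was lower in HCT116 than in DLD1 by a log2 of -1.24 ± 0.08 (adjusted p = 2.49e-10), CCT3 was higher by 1.11 ± 0.09 (adjusted p = 2.28e-09), and CCT4 was higher in DLD1 than in CAL51 by 1.41 ± 0.09 (adjusted p = 2.11e-10). The shares of the other 6 subunits lay closer together, with medians of 8.97% to 11.2% for TCP1, 9.30% to 10.4% for CCT2, 6.51% to 9.40% for CCT5, 11.9% to 13.6% for CCT6A, 15.7% to 16.9% for CCT7 and 10.2% to 12.4% for CCT8. TCP1 was lower in HCT116 than in DLD1 by a log2 of -0.61 ± 0.11 (adjusted p = 0.000128) and CCT2 by -0.55 ± 0.10 (adjusted p = 0.000117).

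**Figure D3:**
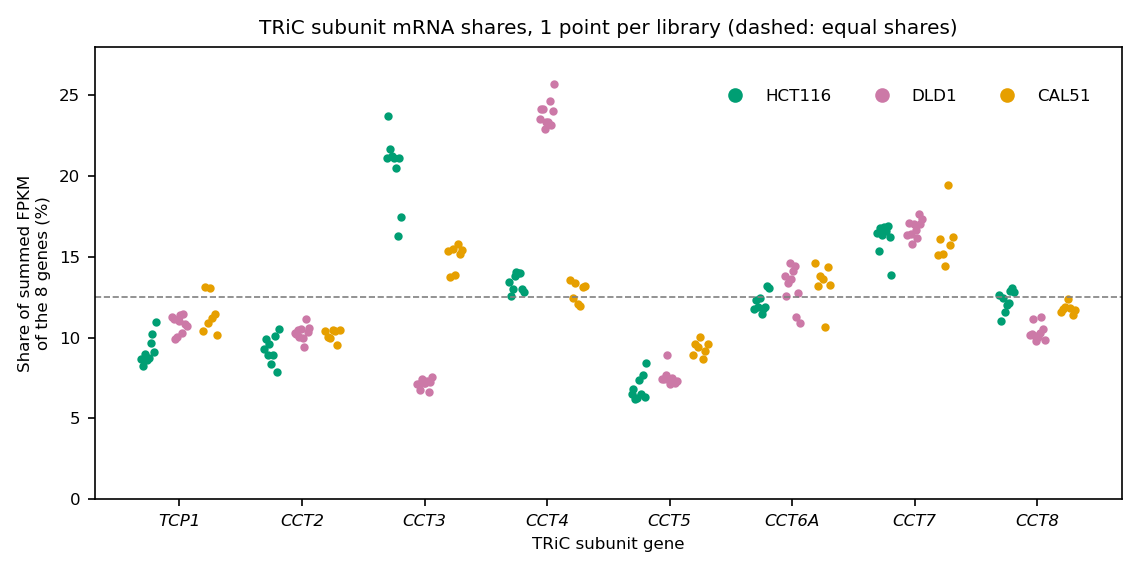
Share of each TRiC subunit gene in the summed FPKM of the 8 genes, 1 point per library, by line, with the y axis from 0 and a dashed line at equal shares. CCT3 takes 6.66% to 7.57% in the 10 DLD1 libraries and CCT4 takes 22.9% to 25.7% there, apart from both other lines.

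The 2 prefoldin genes among the members, PFDN2 and PFDN4, had their highest medians in HCT116. Of 15 tested genes of other prefoldin subunits, TRiC partners and tubulin-folding factors, 3 were higher and 12 lower in HCT116 than in DLD1. Against CAL51 8 were higher and 7 lower. Of all genes, 50.7% and 48.9% were higher in HCT116 in that order. PFDN2 was at 78.5 to 232 FPKM in HCT116, 55.8 to 79.5 in DLD1 and 45.7 to 75.9 in CAL51, and was higher in HCT116 by 0.90 ± 0.17 against DLD1 (adjusted p = 0.000185) and 0.99 ± 0.20 against CAL51 (adjusted p = 0.000281). Its highest value came from 1 clone, HCT116 small clone 2, with the next at 150.2. PFDN4 was higher in HCT116 than in CAL51 by 0.64 ± 0.10 (adjusted p = 2.31e-05). Among HSP90 genes, HSP90AB1 was at 599 to 769 in CAL51, 819 to 1707 in HCT116 and 1143 to 1752 in DLD1, so every CAL51 library lay below all others. It was higher by 0.88 ± 0.15 in HCT116 (adjusted p = 3.75e-05) and by 0.99 ± 0.14 in DLD1 (adjusted p = 9.54e-06), and HSP90AA1 was higher by 0.83 ± 0.17 in DLD1 than in CAL51 (adjusted p = 0.000314). HSPB1, the small heat shock protein HSP27 that holds unfolded proteins without ATP, was higher by 1.10 ± 0.20 in DLD1 than in CAL51 (adjusted p = 0.000127). HSPD1 was higher by 0.73 ± 0.18 in the same comparison (adjusted p = 0.00175), and HSPE1, its lid, was lower in HCT116 than in DLD1 by a log2 of -0.59 ± 0.17 (adjusted p = 0.00453).

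DNAJA1 and HSPA13 had their highest line medians in CAL51, and BAG1 was among the members with their lowest in HCT116. DNAJA1, the main HSP40 partner of HSPA8, was at 109 to 159 FPKM in CAL51, 71.2 to 96.2 in DLD1 and 38.9 to 145 in HCT116. It was lower in HCT116 than in CAL51 by a log2 of -1.07 ± 0.23 (adjusted p = 0.000468) and lower in DLD1 than in CAL51 by a log2 of -0.70 ± 0.23 (adjusted p = 0.0125). HSPA13, an HSP70-like ATPase of microsomes, was lower in DLD1 than in CAL51 by -0.98 ± 0.16 (adjusted p = 3.43e-05), with 6.98 to 10.5 against 12.4 to 25.4 FPKM. BAG1, another HSP70 nucleotide exchange factor, was lower in HCT116 than in DLD1 by -0.85 ± 0.14 (adjusted p = 4.22e-05). The genes of the factors themselves had narrower ranges. HSF1 was at 26.7 to 38.0 FPKM in HCT116, 21.6 to 29.7 in DLD1 and 22.1 to 36.9 in CAL51, and HSF2 at 6.23 to 11.6 over all libraries. The mRNA of HSF1 does not measure the activity of its protein, and that activity was not measured here.

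Clones of HCT116 differed more among themselves than those of the other lines for several stress-responsive members. The highest HCT116 library exceeded the lowest by more than 3-fold for 7 of 40 members (17.5%), HSPA8 (13.0-fold), HSPA1A (9.11-fold), HSPA1B (5.71-fold), HSPH1 (5.24-fold), DNAJA1 (3.73-fold), DNAJB4 (3.26-fold) and HSPE1 (3.01-fold). For all tested genes with at least 1 FPKM throughout the line the share was 10.7%. In DLD1 0 of 40 members passed 3-fold (5.28% of all genes), and in CAL51 0 of the 38 that held at least 1 FPKM throughout (10.9% of all genes). Those left out in CAL51, HSPA1A and HSPA1B, spanned 3.10-fold and 3.32-fold there, at levels of 1.26 FPKM or less. DNAJA1 was at 48.2 in the HCT116 parental library, 70.3 and 46.2 in the 2N clones, 81.4, 39.9 and 67.2 in the small clones and 90.5, 38.9 and 145 in the large clones. HCT116 small clone 2 and large clone 2 were thus the 2 lowest libraries for DNAJA1 and for HSPA8, and large clone 3 the highest for both. HSF1 mRNA spanned 1.42-fold over the same 9 libraries. DNAJB4 and HSPA13 went the other way in large clone 3, which had the lowest HCT116 value for each (2.02 and 7.78 FPKM).

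Large and small 4N clones were compared within each line to see which genes differ with clone size when ploidy is shared. In HCT116 most chaperone genes had higher means in the large clones, but DNAJB1 alone passed the test, and in CAL51 most had lower means in the large clones. DNAJB1 encodes the HSP40 that works with HSP70 in dissolving aggregates and in shutting off HSF1 (chromosome 19, 14514770 to 14529770). It was at 55.0, 36.7 and 44.7 FPKM in the small HCT116 clones and 85.5, 64.3 and 75.4 in the large ones, beside 48.0 and 54.8 in the 2N clones and 46.5 in the parental library. Every large clone exceeded every other HCT116 library. In DLD1 it was at 54.6 in the parental library, 63.6 and 50.7 in the 2N clones, 61.4, 61.8 and 58.0 in the small clones and 66.3, 60.3, 63.1 and 67.3 in the large clones, which overlap. DNAJB1 was higher in the large than in the small clones, with a log2 difference of 0.72 ± 0.14 (3 clones against 3, adjusted p = 0.0234), and it was the 1 member called among 40, beside 0.445% of all genes. Leaving out small clone 1, small clone 3 or large clone 2 kept the call, but it was lost without small clone 2 (adjusted p = 0.0535), large clone 1 (0.0948) or large clone 3 (0.0577), with limma voom on recovered reads (0.0845) and when HCT116 was fitted alone (0.357).

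In HCT116 35 of the 40 members had a higher mean in large clones and 5 a lower one (49.2% of all genes were higher), with a median log2 difference of 0.36 beside -0.002 for all genes. That median was 0.21 without large clone 3 and 0.24 without small clone 2. By role, the higher means were 5 of 6 for HSP70, 3 of 3 for HSP110, 4 of 5 for HSP40, 2 of 2 for HSP90, 6 of 6 for HSP90 and HSP70 co-chaperones, 8 of 8 for TRiC, 5 of 5 for mitochondrial chaperones, 1 of 2 for prefoldin, 1 of 2 for heat shock factors and 0 of 1 for HSPB1. With voom the counts were 33 higher and 7 lower, and 1 HSP110 gene and 1 co-chaperone gene then had lower means. The TRiC genes lay between 0.20 and 0.57 on the log2 scale (median 0.49), with a lowest adjusted p of 0.1 for CCT8 (0.52 ± 0.14). TCP1 was at 67.8, 62.5 and 95.9 FPKM in small clones and 115, 93.1 and 125 in large clones, which overlap, and its difference of 0.57 ± 0.19 did not pass (adjusted p = 0.16). HSPA8 had the largest difference of means, 0.93 ± 0.55, and did not pass either (adjusted p = 0.44). Without large clone 2 it was 1.81 ± 0.41 and passed (adjusted p = 0.0172). The lowest differences were those of HSPA13 (-0.36 ± 0.23, adjusted p = 0.479), HSF2 (-0.32 ± 0.14, adjusted p = 0.264) and DNAJB4 (-0.29 ± 0.25, adjusted p = 0.642).

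The count of members called in HCT116 depended on single clones. It was 0 without small clone 2, large clone 1 or large clone 3, 2 without small clone 3 and 11 without large clone 2, when 6.98% of all genes were called. Those 11 were HSPA8, HSPA1A, HSPA1B, HSPA4, HSPA14, DNAJA1, DNAJB1, CCT8, CCT5, TCP1 and CCT2, all higher in the other large clones. With both clones numbered 2 left out, a choice made after the values were seen, HSPA8, CCT5 and DNAJB1 were called, HSPA8 at 1.21 ± 0.27 (adjusted p = 0.0223). Libraries did not overlap for 8 members higher in large clones, beside 6.85% of all genes, namely DNAJB1, CCT5, CCT6A, CCT8, CDC37, DNAJA3 and both HSPA14 genes. None was lower without overlap, beside 7.5% of all genes.

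In DLD1 0 of 40 members were called between large and small clones (1 at an unadjusted p under 0.05), beside 0.472% of all genes. The members' median log2 difference was 0.06, with 29 higher and 11 lower (48.9% of all genes higher). HSPB1 had the most negative difference, -0.67 ± 0.27 (adjusted p = 0.579). It was at 489, 522 and 391 FPKM in the small clones and 194, 291, 299 and 422 in the large clones, beside 553 and 435 in the 2N clones and 402 in the parental library, so that large clone 4 lay within the range of the other classes. The next lowest were PFDN2 (-0.23 ± 0.26) and DNAJA2 (-0.21 ± 0.21), and the highest HSPA1B (0.40 ± 0.40), HSPA9 (0.30 ± 0.17) and HSPA8 (0.28 ± 0.51), with adjusted p of 0.92 or more. The SEs pool the spread between clones over all lines and are not that of DLD1 alone. HSPA8 spanned 1.37-fold over the DLD1 libraries but 13.0-fold over those of HCT116. DNAJA2, an HSP40 close to DNAJA1, was at 13.5 in large clone 1 and at 28.7, 29.7 and 30.2 in the other large clones. Without overlap, HSPA8, CCT4, HSPA9, AHSA1 and HSPA1B were higher in large clones, 5 members beside 5.28% of all genes, and PFDN2 was lower, 1 beside 6.21%.

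CAL51 had 1 small clone, whose spread had to be taken from the other classes. Again 0 of 40 members were called (4 at an unadjusted p under 0.05), beside 1.52% of all genes. Here 30 members had lower and 10 higher means in large clones (50.2% of all genes higher), with a median of -0.1 that was -0.19 without large clone 1, and 28 were lower with median-ratio scaling. All 8 TRiC genes were among the lower, at -0.58 to -0.08. The small clone had TCP1 at 122 FPKM and the large clones at 94.9, 83.4 and 68.1, but the 2N clones had 112 and 84.7 and the parental library 71.6. Its difference of -0.58 ± 0.26 did not pass (adjusted p = 0.372), nor did that of CCT5 (-0.46 ± 0.21, adjusted p = 0.37) or DNAJA1 (-0.43 ± 0.46, adjusted p = 0.806). The highest were DNAJB4 (0.48 ± 0.36, adjusted p = 0.669), HSF1 (0.39 ± 0.22, adjusted p = 0.513) and BAG3 (0.27 ± 0.27, adjusted p = 0.788).

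Averaged over the 3 lines, 0 members were called for size (0 at an unadjusted p under 0.05), beside 0.398% of all genes. There 32 were higher and 8 lower, with a median of 0.08 that was -0.03 without HCT116, and the highest differences were those of HSPA8 (0.39 ± 0.36), HSPA1B (0.28 ± 0.28) and HSPA1A (0.24 ± 0.29) and the lowest those of HSPB1 (-0.23 ± 0.19), PFDN2 (-0.21 ± 0.19) and HSF2 (-0.13 ± 0.09), with adjusted p of 0.705 or more. Whether lines differed in their size effect was tested directly. Between HCT116 and CAL51 the effect on DNAJB1 differed by a log2 of 1.14 ± 0.24 (adjusted p = 0.0251), 1 of 40 members beside 1.54% of all genes. In CAL51 DNAJB1 was at 58.9 in the small clone and 44.2, 43.5 and 43.4 in the large clones, below the 54.1 of the parental library and the 49.4 and 46.6 of the 2N clones. That call was lost with voom (adjusted p = 0.0825). With DNAJB1, the highest differences were those of TCP1 (1.15 ± 0.32, adjusted p = 0.0761) and CCT5 (1.01 ± 0.25, adjusted p = 0.0548), which did not pass. DNAJB4 (-0.77 ± 0.44), HSPB1 (-0.45 ± 0.50) and HSPA13 (-0.40 ± 0.40) were lowest. The count was 5 without HCT116 small clone 3, 7 without HCT116 large clone 2 and 5 without CAL51 large clone 1, with CCT8, CCT5 and TCP1 among the members added each time. Between HCT116 and DLD1 (0.155% of all genes) and between DLD1 and CAL51 (0.667%) 0 members were called, 4 and 2 at an unadjusted p under 0.05. In the first, HSPA8 (0.65 ± 0.75), DNAJB1 (0.63 ± 0.19) and CCT6A (0.63 ± 0.20) were highest and HSPA13 (-0.46 ± 0.31), DNAJB4 (-0.36 ± 0.35) and HSF2 (-0.20 ± 0.19) lowest, with adjusted p of 0.317 or more. In the second, TCP1 (0.66 ± 0.32), DNAJA1 (0.59 ± 0.55) and HSP90AA1 (0.57 ± 0.41) were highest and HSPB1 (-0.89 ± 0.49), HSF1 (-0.51 ± 0.26) and DNAJB4 (-0.41 ± 0.43) lowest, with adjusted p of 0.453 or more.

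**Figure D4:**
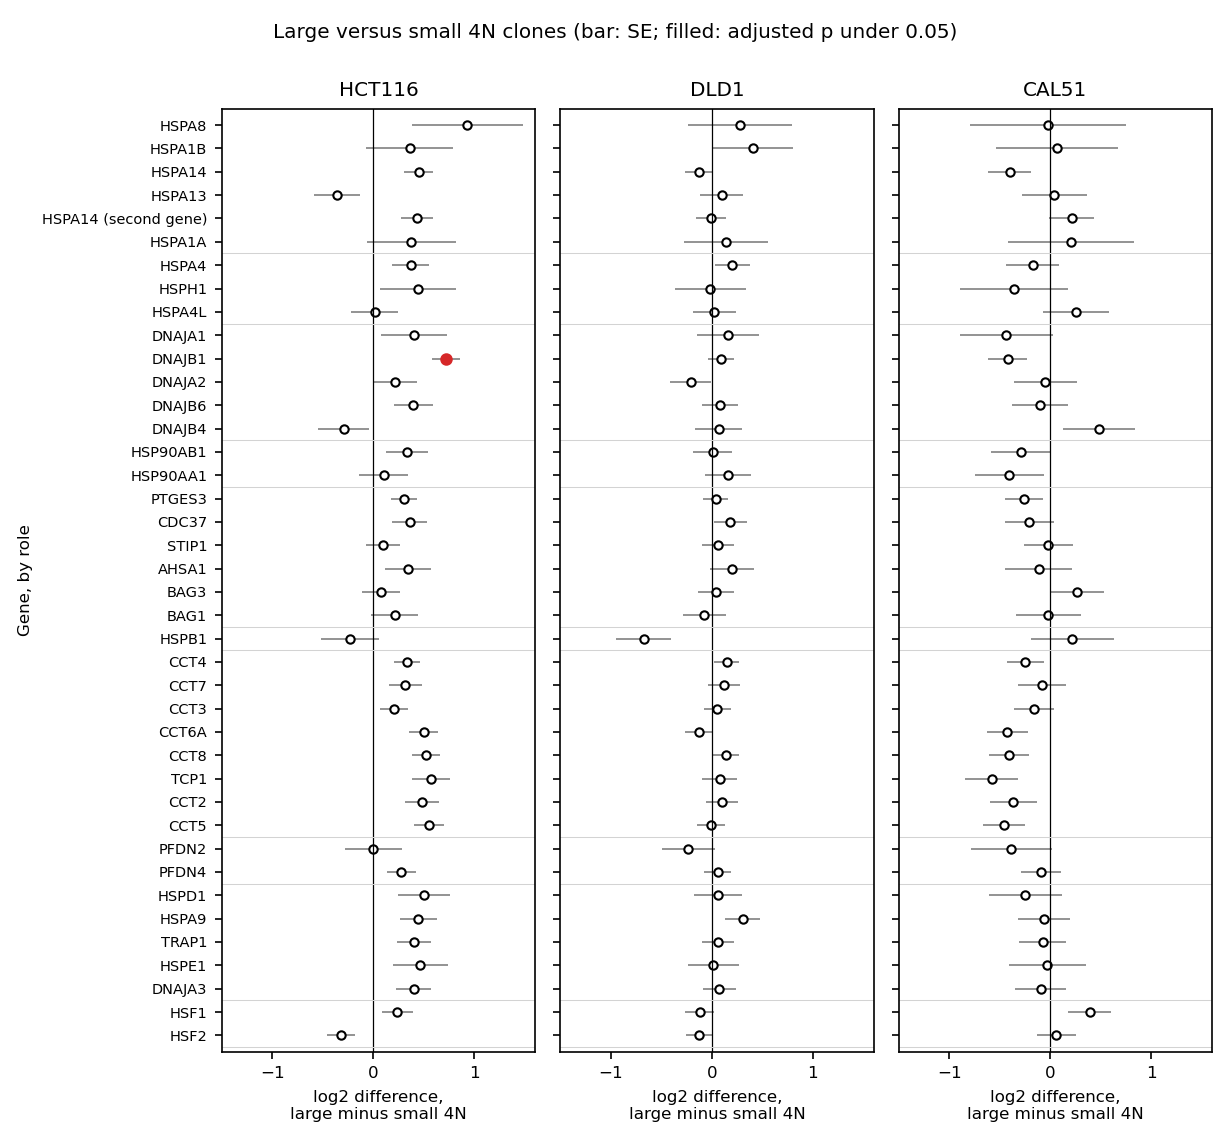
Log2 difference between large and small 4N clones for each member (rows, by role) in each line, with bars of 1 SE from the limma fit and a filled point where the adjusted p was under 0.05. DNAJB1 in HCT116 is the 1 filled point, and the TRiC genes lie right of 0 in HCT116 and left of 0 in CAL51.

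Against the 2N clones, 0 members were called in any line or class, and HCT116 large clones came closest. Averaged over lines and sizes, 4N clones differed from 2N clones in 0 of 40 members (1 at an unadjusted p under 0.05), beside 0.00674% of all genes. Their median was 0.08, and it was -0.01 without HCT116, 0.16 without DLD1 2N clone 1 and 0.02 without DLD1 2N clone 2. The highest differences there were HSPA1A (0.42 ± 0.27), HSPA1B (0.28 ± 0.25) and HSPH1 (0.26 ± 0.23), and the lowest HSPA13 (-0.22 ± 0.14), HSF1 (-0.13 ± 0.09) and the second HSPA14 gene (-0.12 ± 0.09), with adjusted p of 0.979 or more. Large HCT116 clones had higher means than the 2N clones for 36 members and lower for 4 (48.8% of all genes higher), with a median of 0.46. Of these, 18 had an unadjusted p under 0.05 and 0 passed adjustment, beside 0.917% of all genes called. CCT5 was nearest with 0.69 ± 0.16 (adjusted p = 0.0516), followed by CCT8 with 0.65 ± 0.15 (adjusted p = 0.0524). CCT5 was at 50.5 and 49.3 FPKM in the 2N clones, 52.6 in the parental library and 86.7, 64.8 and 95.9 in the large clones, without overlap. The largest differences were HSPH1 (1.15 ± 0.42, adjusted p = 0.189), HSPA1A (1.15 ± 0.50, adjusted p = 0.26) and HSPE1 (0.84 ± 0.30, adjusted p = 0.185), and the lowest HSPA13 (-0.45 ± 0.26, adjusted p = 0.405), HSF2 (-0.23 ± 0.15) and DNAJB4 (-0.16 ± 0.28). Without large clone 2, HSPA1A was at 1.90 ± 0.33 (adjusted p = 0.00456), HSPH1 at 1.64 ± 0.38 (adjusted p = 0.0162) and HSPE1 at 1.11 ± 0.30 (adjusted p = 0.0313). All 3 large clones exceeded both 2N clones for 22 members, beside 15.7% of all genes, and lay below them for 0, beside 17.5%. The count called was 9 with the parental library counted among the 2N libraries, 2 with no filter on low values and 17 without large clone 2, when 7.97% of all genes were called.

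Small HCT116 clones differed from the 2N clones in 0 of 40 members (1 at an unadjusted p under 0.05), beside 0.027% of all genes. HSPB1 (0.72 ± 0.33), HSPA1A (0.77 ± 0.50) and HSPH1 (0.71 ± 0.42) had the highest means and DNAJA3, a mitochondrial HSP40, the lowest (-0.30 ± 0.20), followed by HSPA8 (-0.30 ± 0.61) and HSPA9 (-0.26 ± 0.21), with an adjusted p of 1 for each. The members' median was 0.10, against 0.22 without small clone 2 and 0.03 without small clone 3. Libraries of small HCT116 clones lay above both 2N clones for HSPB1, PTGES3 and DNAJA2, 3 members beside 11.8% of all genes, and below for 0, beside 11.2%. In DLD1 0 members were called for small clones (1 at an unadjusted p under 0.05), beside 0.337% of all genes, with 13 higher and 27 lower. The lowest differences were the second HSPA14 gene (-0.40 ± 0.18), HSPA9 (-0.34 ± 0.21) and HSPE1 (-0.30 ± 0.30), and the highest HSPA1A (0.41 ± 0.50), DNAJB4 (0.19 ± 0.28) and BAG3 (0.15 ± 0.21), with adjusted p of 0.615 or more. The members' median of -0.09 turned with the control clone, at 0.14 without 2N clone 1 and -0.25 without 2N clone 2. Small DLD1 clones lay above both 2N clones for 0 members, beside 13.8% of all genes, and below for 7, beside 15.1%, namely HSPA8, CCT8, DNAJA2, PFDN4, BAG1, DNAJB6 and the second HSPA14 gene. For large DLD1 clones 0 members were called by limma (2 at an unadjusted p under 0.05), beside 0% of all genes, where 444 genes had an unadjusted p under 0.05 and the median of the members, 0.001, was 0.15 without 2N clone 1 and -0.22 without 2N clone 2. HSPB1 (-0.75 ± 0.31), the second HSPA14 gene (-0.41 ± 0.17) and DNAJA2 (-0.40 ± 0.23) were lowest and HSPA1A (0.55 ± 0.47), HSPA1B (0.40 ± 0.45) and DNAJB4 (0.26 ± 0.27) highest, with an adjusted p of 1 for each. Large DLD1 clones lay above both 2N clones for HSPA1A, HSPA1B and DNAJB4, 3 members beside 6.95% of all genes, and below for HSPB1, PFDN4, BAG1 and the second HSPA14 gene, 4 beside 7.77%. In CAL51 the small clone differed in 0 members (2 at an unadjusted p under 0.05), beside 0.148% of all genes, and HSF1 had the lowest difference, -0.60 ± 0.23 (adjusted p = 0.949), followed by DNAJB4 (-0.47 ± 0.38) and HSPA13 (-0.31 ± 0.34). HSPA14 (0.57 ± 0.22, adjusted p = 0.949), BAG1 (0.57 ± 0.35) and CDC37 (0.41 ± 0.26) had the highest. HSF1 was at 22.1 in that clone against 36.9 and 31.4 in the 2N clones, but at 23.9 in the parental library and 33.8, 22.2 and 33.4 in the large clones. Large CAL51 clones differed in 0 members (1 at an unadjusted p under 0.05), beside 0.465% of all genes, with 10 higher and 30 lower. The median was -0.05, against -0.16 without 2N clone 2, -0.15 without large clone 1 and 0.01 with the parental library among the 2N libraries. BAG1 had the highest difference there (0.55 ± 0.26, adjusted p = 0.606), followed by HSPB1 (0.41 ± 0.33) and BAG3 (0.34 ± 0.21), and HSPH1 (-0.41 ± 0.42) and HSPA13 (-0.27 ± 0.26) were among the lowest. Their libraries lay below both 2N clones for 9 members, beside 7.72% of all genes, including both HSP90 genes, HSPA8, DNAJA1, DNAJB1 and CCT4, and above for BAG1 and DNAJB6, 2 beside 8.32%. HSP90AA1 was at 456 and 429.7 in the CAL51 2N clones and 251, 349 and 331 in the large clones (-0.53 ± 0.27, adjusted p = 0.674), with 334 in the parental library.

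Clones can gain or lose chromosomes, so each member was set beside its chromosome. For every 4N clone, the log2 difference from the line's 3 2N libraries (parental and 2 clones) was taken over genes with a mean of at least 5 FPKM, and the median of the chromosome was read relative to the median of all genes. In DLD1 small clone 1 the median of chromosome 5 was -0.29, and the members there with long-arm positions were low too, HSPA9 at -0.63 (58.0 FPKM) and HSPA4 at -0.43 (47.8 FPKM). CCT5, on the short arm of the same chromosome, was at 0.14 in that clone, and the genes within 10 Mb of it had a median of 0.11. In HCT116 large clone 3 chromosome 5 stood at 0.28, and CCT5 was at 0.90 where its neighbours within 10 Mb had a median of 0.68. In CAL51 large clone 1 chromosome 13 stood at -0.32 with HSPH1 at -0.89, and chromosome 19 at 0.27 with CDC37, which loads kinases onto HSP90, at 0.64 and DNAJB1 at -0.17. In HCT116 large clone 1 chromosome 1 stood at -0.30, while its members CCT3 (0.09), PFDN2 (0.00) and DNAJB4 (0.07) did not lie below the 2N libraries. DLD1 large clones 2 and 4 had chromosome 7 at -0.30 and -0.29, and HSPB1 was at -0.66 and -0.12 there, but its lowest value was in large clone 1, at -1.24, where the chromosome stood at -0.01. CCT6A, on the same chromosome, was at 134 and 125 FPKM in large clones 2 and 4, beside 137 to 176 in the other DLD1 libraries. DNAJB6, also on chromosome 7, was at 4.87 and 6.22 in these clones, beside 6.21 to 9.08.

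Other outlying values had no such shift beside them. HSPA8 was at 2.21 in HCT116 large clone 3, -1.48 in small clone 2 and -1.12 in large clone 2, while genes within 10 Mb had medians of -0.002, -0.007 and -0.05. DNAJA2 was at -1.18 in DLD1 large clone 1 with a neighbourhood median of -0.03 over 19 genes. PFDN2 was at 0.90 in HCT116 small clone 2 with a neighbourhood median of 0.06. DNAJB1 was at 0.77, 0.37 and 0.59 in HCT116 large clones 1, 2 and 3, where its neighbourhood stood at 0.14, -0.04 and -0.09. DNA copy number was not measured in these files, and its part in any of these values was not tested.

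**Figure D5:**
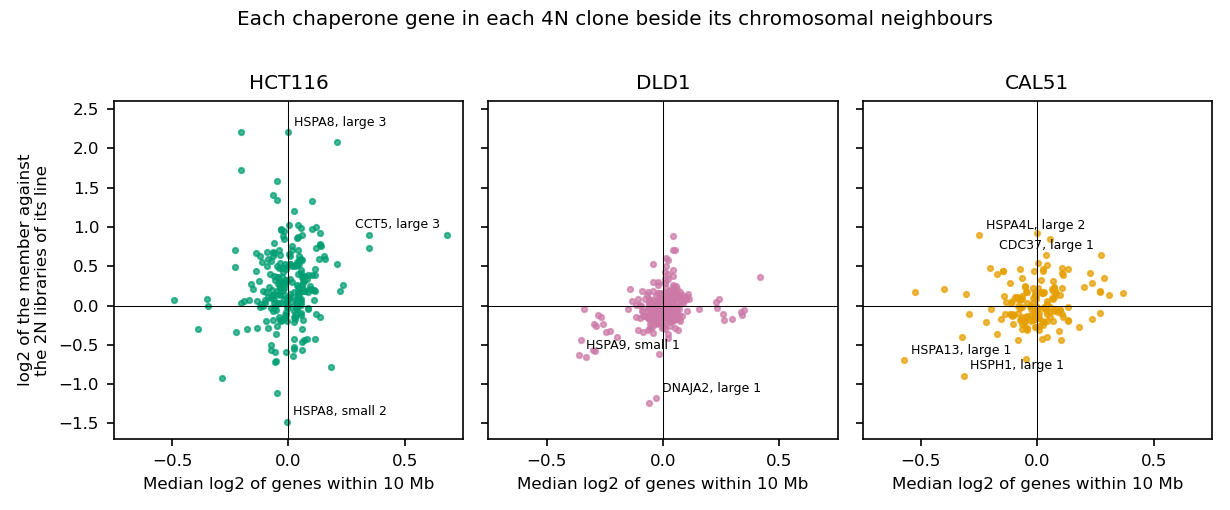
Each member in each 4N clone by the median log2 difference of genes within 10 Mb (x axis) and its own log2 difference from the 3 2N libraries of its line (y axis), 1 point per gene and clone. Members of DLD1 small clone 1 on the long arm of chromosome 5 lie low on both axes, while HSPA8 in HCT116 and DNAJA2 in DLD1 large clone 1 lie far from 0 with neighbours near 0.

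Related genes outside the named set were counted too. Of 46 other cytosolic chaperones and co-chaperones 42 were tested, of 16 other prefoldin subunits, TRiC partners and tubulin-folding factors 15, of 21 other mitochondrial chaperones, proteases and import genes 20, and all 17 chaperones of the endoplasmic reticulum. In the 11 comparisons of size or ploidy 0 of them were called. Beside 49.2% of all genes with higher means and a median of -0.002, in HCT116 the mitochondrial list had higher means in large clones for 17 of 20 genes (median 0.21) and the cytosolic list for 26 of 42 (median 0.09). The endoplasmic reticulum list had higher means for 5 of 17 (median -0.05) and the prefoldin and TRiC partner list for 8 of 15 (median 0.03). The size effect differed between HCT116 and CAL51 for URI1, a prefoldin-like protein of the R2TP complex, by 0.92 ± 0.22 (adjusted p = 0.0434), beside 1.54% of all genes called.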

How the data were processed

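Messenger RNA of 26 libraries was analysed. Values are FPKM as deposited by the authors. The submitters' processing notes name the build GRCh38 and the tools fastp, HISAT2 (2.0.5), featureCounts (1.5.0-p3) and DESeq2. Per the labels' protocols, RNA was poly-A selected in directional libraries. The annotation and the treatment of reads with several matches are not given in the sources used here.

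The members and lists were chosen with earlier results of these data known. Testing was limited to 14835 genes that reached 1 FPKM in 3 libraries. The model, in limma 3.58.1 under R 4.3.3, had 12 means of line and class on log2(FPKM + 1), an intensity trend and 14 residual degrees of freedom. Tests were two-sided, with Benjamini-Hochberg adjustment over all tested genes and a threshold of 0.05. All 12 means share the same estimate of the spread for each gene, so an SE within a line also reflects clones of the other lines. Small and large clones share the 2N clones as controls. Named members are those past the threshold, up to the 10 largest differences, and, where fewer than 4 pass, the 3 highest and 3 lowest, given as values. All library values are given for the 6 members with the widest range of class means and for members past the threshold between sizes or ploidies. Other named values were chosen after they were seen. Reads were recovered from FPKM (100% whole to within 0.01) for depth and for voom. Alternatives covered the pseudocount, filters, scaling, voom, separate lines, parental libraries, the replicate block and leaving out each clone. The fit was checked on simulated data. Python version 3.11.15, pandas version 2.3.3, numpy version 2.4.6 and matplotlib version 3.10.9 were used for the rest. Sequences are from RefSeq (GRCh38.p14).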

Additional observations from a re-analysis of the deposited data

Results flagged for a closer look

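In the 4 large DLD1 clones 1 value stood apart from the other 3, relative to their range, for 4 of the 40 members, where chance alone gives about 1 in 20. In large clone 2 CCT3 was at 79.2 FPKM (others 86.6 to 87.7), PFDN2 at 55.8 (61.3 to 61.6) and HSPA14 at 15.7 (19.4 to 20.0). DNAJA2 was at 13.5 in large clone 1 (others 28.7 to 30.2). Each was the lowest of its group. Chromosome 10, which carries HSPA14, stood at -0.33 in DLD1 large clone 2, and HSPA14 was at -0.24 there. Groups of other sizes were not examined in this way.

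The difference between large and small clones differed between 2 lines for DNAJB1, by a log2 of 1.14 between HCT116 and CAL51 (adjusted p = 0.0251 for the difference itself, from limma). DNAJB1 was higher in 3 of 3 large HCT116 clones than in each small clone and lower in 3 of 3 large CAL51 clones than in the 1 small clone.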

How the results depend on the processing

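HSPA1A and HSPA1B together had as few as 50 reads in a CAL51 library. The 1 small CAL51 clone could not be left out. No result changed its direction when called. Single-gene values and chromosome medians under the alternatives were counted together. Of these, 15 single-gene values lost a call and 13 gained one. The other 1934 kept their side of the threshold or, for chromosome medians, moved by less than the SD over the line's libraries. Members called between large and small HCT116 clones, 1 as reported, were 0 with limma voom, 0 with HCT116 fitted alone, 3 with both clones numbered 2 left out, and 0 to 11 with each clone left out in turn. Between large HCT116 and 2N clones, 0 as reported, they were 2 with no filter, 9 with the parental library among the 2N libraries and 0 to 17 with each clone left out. For the difference of size effects between HCT116 and CAL51, 1 as reported, they were 3 with no filter, 0 with voom and 1 to 7 with each clone left out. In the other comparisons counts of members called stayed within 1.5 times the reported count. The count of all genes called between sizes in HCT116, 0.445% as reported, was 0.0202% with the line alone and 6.98% without large clone 2. The cause of these changes was not tested.

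The labels do not say whether same-numbered clones were paired. The correlation of their deviations from class means ran from -0.0558 to 0.2054 over 16 pairs, and 6 exceeded 0.1. With the number as a replicate block, members called were 0 for size in HCT116 (DNAJB1 adjusted p = 0.0631) and 0 for the difference between HCT116 and CAL51 (DNAJB1 adjusted p = 0.0808).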
